A study of Mus musculus with 4 samples.

Results

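Ependymal ciliated spots were the spots of a mouse brain spatial transcriptome richest in RNA of 5 genes that ependymal cells with motile cilia express: Ccdc153, Tmem212, Dynlrb2, Foxj1 and Sntn. They were chosen among spots over tissue with at least 2000 unique molecular identifiers (UMIs, the count of captured molecules). Each spot's score was the summed CPM of the 5 genes (their UMIs scaled to a common total of 1e+06 UMIs per spot), and the top 1.5% of spots, ranked over all capture areas together, were taken. The rule gave 191 of 12696 spots, against which the other 12505 spots were set. A Visium spot covers a small region that can hold several cells of different types, so the ependymal ciliated spots are places rich in ependymal RNA and not single ependymal cells. In such spots fewer cells of a type and less RNA per cell cannot be told apart.

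The series profiled formalin-fixed, paraffin-embedded mouse brain at day 11, after inoculation of a tumour and its resection, with probes hybridised to RNA and captured on Visium arrays. One group is labelled TREAT and the other Vehicle, and the series describes its animals as hydrogel-treated or non-treated. Each group had 2 capture areas, TREAT 1+4 and TREAT 2+3, and Vehicle 1+4 and Vehicle 2+3. Strain, sex, age and tumour line are not given in the sources used here. Inoculation and resection were shared by both groups, so there is no tumour-free brain among the areas. The series states 4 animals in total, while each area carried 2 large pieces of tissue, and the labels do not say which animal a piece came from. The p-values below therefore measure only the spread between capture areas, which may be technical.

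Ependymal cells form the epithelium that lines the brain ventricles. Their tufts of motile cilia beat and move cerebrospinal fluid along the wall. A motile cilium is built on an axoneme, a ring of doublet microtubules around a central pair, with outer and inner dynein arms as motors, radial spokes and nexin links that coordinate them, and tektins and other proteins inside the doublets. Foxj1 and the Rfx transcription factors switch on the genes of this machinery in multiciliated cells. The choroid plexus, a secretory epithelium, is attached to the same wall, and astrocytes and myelinated fibres lie just beneath it.

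The 56 ependymal ciliated spots of TREAT 1+4 were 1.67% of its 3349 spots (95% Wilson interval 1.29 to 2.17), and the 71 of TREAT 2+3 were 2.36% of 3004 spots (1.88 to 2.97). The 26 of Vehicle 1+4 were 0.862% of 3016 spots (0.589 to 1.26), and the 38 of Vehicle 2+3 were 1.14% of 3327 spots (0.833 to 1.56). These intervals cover counting error only. The shares averaged 2.02% ± 0.489 in TREAT and 1.00% ± 0.198 in Vehicle (SD, n = 2 areas each), and the ranges did not overlap. The difference of 1.02 percentage points had a two-sided exact permutation p of 0.333, the smallest that 2 areas against 2 can give. With the top 3% of spots taken instead, the difference was 0.462 points, and the groups overlapped (exact permutation p = 0.667).

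Depth differed along with the share. Kept spots held 56150197 and 51070594 UMIs in TREAT areas and 33999917 and 45721365 in Vehicle areas. The median ependymal ciliated spot held 11281 UMIs in TREAT 1+4, 5677 in TREAT 2+3, 3232 in Vehicle 1+4 and 5115 in Vehicle 2+3, below the median of the other spots of the same area (15050, 12424, 7849 and 9589 in that order). Ependymal ciliated spots that reached the limit with only 2 UMIs of the 5 genes numbered 0 and 3 in TREAT and 8 and 9 in Vehicle. The limit was 500.4 CPM, with 500.8 CPM in the first spot inside it and 516.7 and 487.4 CPM in the tenth spots inside and outside, and 10581 spots (83.3%) had none of the 5 transcripts. With each spot thinned to 2000 UMIs the shares differed by 1.62 points, where 571 spots passed because 1 UMI sufficed, and with at least 3 UMIs of the 5 genes required as well, by 1.23 points.

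The 5 genes chose the spots, so their levels are a description. Ccdc153, a coiled-coil gene of motile ciliated cells, had 384 and 595 CPM in the ependymal ciliated spots of TREAT and 275 and 212 CPM in those of Vehicle, against 2.92 and 2.47 CPM in the other spots of TREAT and 0.797 and 1.01 CPM in those of Vehicle. Foxj1, the master transcription factor of motile cilia, had 161 and 124 CPM in the ependymal ciliated spots of TREAT and 312 and 284 CPM in those of Vehicle, against 8.86 and 5.33 CPM and 5.25 and 5.87 CPM in the other spots. A Foxj1 UMI was also found in 12.3% and 8.18% of the other spots in TREAT and in 5.55% and 7.39% of those in Vehicle, more often than a Ccdc153 UMI (3.83%, 3.65%, 0.803% and 1.37% in the same order).

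Position on the array was not used by the rule. Ependymal ciliated spots often lay at borders of the tissue and in strings. Of the 191, 130 (68.1%) touched a spot off tissue, against 1759 of the other spots (14.1%). Such a border can be an inner gap or the outer edge of a section, which were not told apart. A further count found 150 (78.5%) that touched another ependymal ciliated spot, while 378 of the other spots (3.02%) touched an ependymal ciliated spot. Those beside a spot off tissue made up 85.7% and 71.8% in TREAT and 76.9% and 28.9% in Vehicle. The last of these, Vehicle 2+3, stood apart from the other areas. The 191 spots formed 67 connected groups, 41 of them single spots, and the largest held 28 spots, in TREAT 2+3. The largest groups elsewhere held 10 spots in TREAT 1+4, 6 in Vehicle 1+4 and 9 in Vehicle 2+3. No array position held such a spot in all areas: the 191 spots used 188 distinct barcodes, 3 of which recurred in another area.

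**Figure D1:**
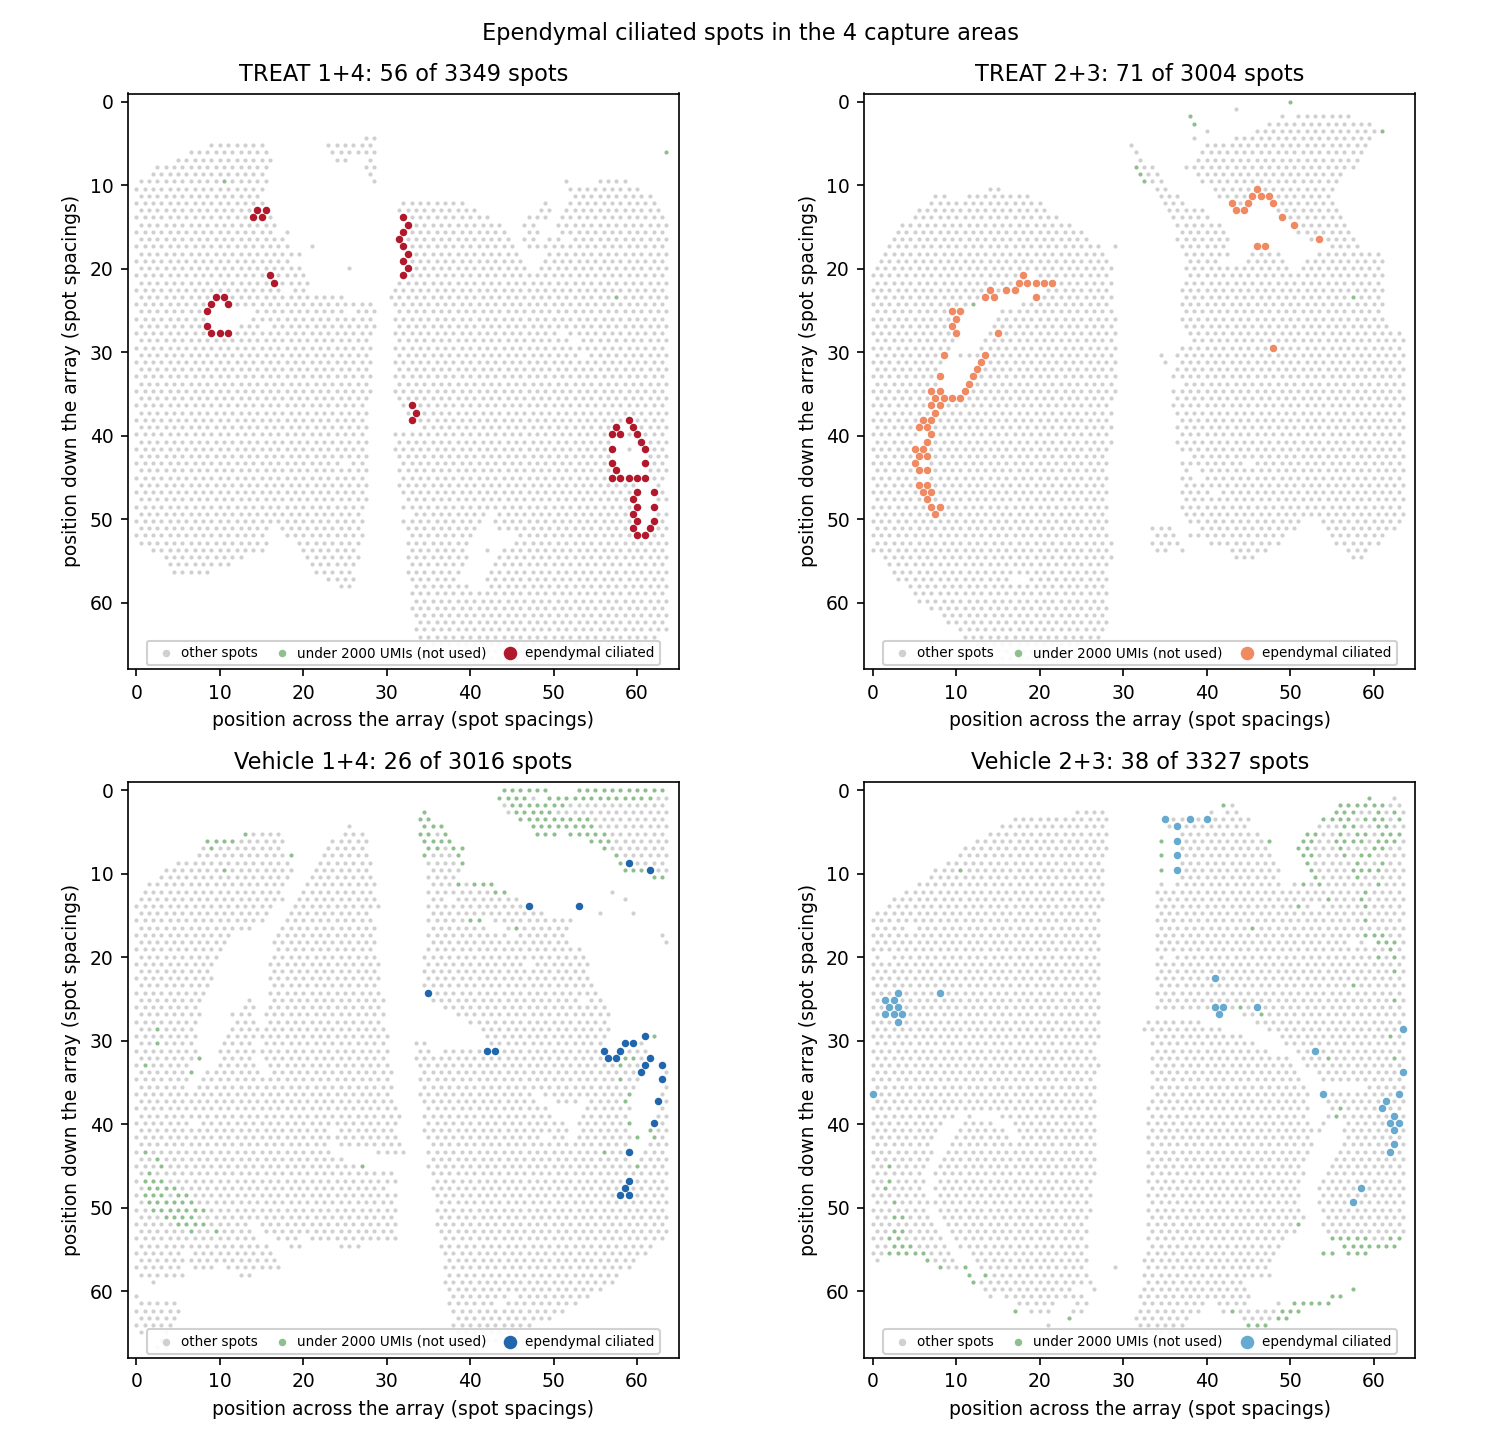
Array maps of the 4 capture areas, TREAT above Vehicle, with axes in spot spacings; coloured points are ependymal ciliated spots, grey points the other spots and green points tissue spots under 2000 UMIs, which were not used. Closed rings and lines of coloured points run along gaps in the tissue in TREAT, with 28 connected spots in TREAT 2+3, while in Vehicle the points are fewer and the left piece of Vehicle 1+4 has none.

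The spots were spread unevenly over the pieces of tissue, named here by their side of the array. In TREAT 1+4 the left piece held 15 of 1373 spots and the right piece 41 of 1951, and in TREAT 2+3 the left piece held 56 of 1629 and the right piece 15 of 1356. In Vehicle 1+4 the right piece held 23 of 1361, detached fragments held 3 of 118, and the left piece held 0 of 1537. That allows a share of up to 0.195%, for counting error only and with spots taken as independent. In Vehicle 2+3 the left piece held 11 of 1596 and the right piece 27 of 1729. The largest and the smallest piece shares differed more within a group than the group means did, and how much ventricle wall each section crossed was not measured.

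Counts were next summed over the ependymal ciliated spots of each area and over its other spots and compared with edgeR's quasi-likelihood F-test, the area as a block and Benjamini-Hochberg adjustment. Because the rule picked the spots by genes of the cilium programme, this comparison is given as a description. Of 18697 genes, 1880 (10.1%) were higher and 1866 (9.98%) lower at an adjusted p under 0.05, and the median of all genes was 0.02 on the log2 scale. Nothing is read from the counts of cilium genes beside those shares. The values below show which parts of the cilium, the ventricle wall and the tissue around it the spots held.

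Axonemal genes outside the rule were high in the same spots. Of 116 genes in 6 lists of axoneme parts, 112 were measured well enough to test, 88 were higher and 1 was lower in ependymal ciliated spots, with a median of 3.01 (log2). Among those that did not pass were Ruvbl1 and Ruvbl2, ATPases of many complexes, and the light chain genes Dynlrb1 and Dnal4. The lower gene was Dynll1, a dynein light chain used throughout the cell, at -0.63.

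Outer dynein arm genes were higher in 10 of 14 cases with a median of 3.13. Dnah9, an outer arm heavy chain, had 95.7 and 109 CPM in the ependymal ciliated spots of TREAT and 83.2 and 54.6 CPM in those of Vehicle, against 9.31 and 8.75 CPM in the other spots of TREAT and 5.33 and 3.29 CPM in those of Vehicle (log2 difference 3.60 ± 0.30, SE). Its partner heavy chain Dnah5 differed by 3.69 ± 0.34 and the docking protein gene Ccdc114 by 4.08 ± 0.32. In every area the ependymal ciliated spots lay above the other spots for these 3 genes. All 13 inner arm genes tested were higher, with a median of 2.77. Dnali1, an inner arm light intermediate chain, had 124 and 149 CPM in TREAT and 83.2 and 95.6 CPM in Vehicle ependymal ciliated spots, against 4.00 and 4.17 CPM and 1.82 and 2.66 CPM in the other spots (5.06 ± 0.29). Of the assembly factors, which fold and preassemble dynein arms in the cytoplasm, 6 of 14 were higher and the median was 0.95. Dnaaf3 was among them, with 116 and 158 CPM in TREAT and 92.4 and 127 CPM in Vehicle, against 9.62 and 10.7 CPM and 9.75 and 11.9 CPM in the other spots (3.50 ± 0.26).

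Radial spoke, nexin link and central pair genes were higher in 23 of 27 cases, with a median of 3.21. The radial spoke head gene Rsph1 had 120 and 180 CPM in the ependymal ciliated spots of TREAT and 120 and 95.6 CPM in those of Vehicle, against 6.74 and 6.36 CPM and 5.28 and 4.31 CPM in the other spots (4.40 ± 0.27). Ak7, an adenylate kinase of the axoneme, had the widest difference of the list at 5.66 ± 0.33, and Drc7, of the nexin-dynein regulatory complex, differed by 4.98 ± 0.33. Genes of tektins and other proteins inside the doublets were higher in 18 of 24 cases (median 2.53), among them Fam183b at 4.48 ± 0.26, Cfap52 at 5.26 ± 0.31 and Tekt1 at 4.38 ± 0.31. Tppp3, a microtubule-binding protein that brain cells without motile cilia also express, had 842 and 927 CPM in TREAT and 610 and 733 CPM in Vehicle, against 183 and 115 CPM and 61.0 and 53.9 CPM in the other spots (2.97 ± 0.23). Of 21 other Cfap genes 19 were higher, with a median of 3.46, the highest of the 6 axonemal lists. Cfap65 and Cfap100 differed by 5.29 ± 0.29 and 4.13 ± 0.24.

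Sequences just upstream of such genes are shown because the Rfx factors read a known motif. In RefSeq promoters of build GRCm38.p6, each 250 bases before to 50 after a gene's start, the RFX motif GTTGCC was searched on both strands. It was found in 43 of 105 promoters (41.0%) of 96 axonemal genes, in 9 of 22 (40.9%) of intraflagellar transport genes and in 5 of 22 (22.7%) of choroid plexus genes. Of all 32851 promoters 12.5% held it. The full RFX palindrome known as the X-box, which can overlap the short motif, was in 3 of the 105 (2.86%) and in 0.451% of all, and the forkhead motif GTAAACA in 6 (5.71%) and in 3.65%. A match is a description of the letters and not a bound site. Of 9 promoters found for the 12 named genes with the strongest excess, 3 held GTTGCC, 2 of which are printed with the promoter of the nexin link gene Iqca, which held the palindrome. Capitals mark the match to the palindrome in Iqca (minus strand, chr1:90153387-90153686, first base of the match at -100 from the gene start) and each GTTGCC in Ttc21a (plus strand, chr9:119937356-119937655, at 7) and in Fam183b (minus strand, chr11:58801911-58802210, 2 matches, the first at -67).
Iqca: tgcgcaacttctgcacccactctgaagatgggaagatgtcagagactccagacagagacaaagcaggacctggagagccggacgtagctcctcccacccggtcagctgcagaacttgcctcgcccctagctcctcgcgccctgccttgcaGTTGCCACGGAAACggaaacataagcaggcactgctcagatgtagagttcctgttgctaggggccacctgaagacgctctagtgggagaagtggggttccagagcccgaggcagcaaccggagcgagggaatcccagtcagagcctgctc
Ttc21a: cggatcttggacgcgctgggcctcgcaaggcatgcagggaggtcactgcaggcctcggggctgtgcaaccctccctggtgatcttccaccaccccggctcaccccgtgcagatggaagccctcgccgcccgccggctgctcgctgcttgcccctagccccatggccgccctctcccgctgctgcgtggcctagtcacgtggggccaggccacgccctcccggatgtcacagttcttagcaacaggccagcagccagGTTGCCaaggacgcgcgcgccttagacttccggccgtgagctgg
Fam183b: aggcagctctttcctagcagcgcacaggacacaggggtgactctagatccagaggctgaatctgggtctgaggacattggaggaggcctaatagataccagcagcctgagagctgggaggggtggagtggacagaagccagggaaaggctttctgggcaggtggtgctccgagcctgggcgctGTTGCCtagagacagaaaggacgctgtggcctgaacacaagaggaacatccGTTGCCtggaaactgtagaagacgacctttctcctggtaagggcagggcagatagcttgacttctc
In ependymal ciliated spots against other spots these genes differed by 3.68 (Iqca), 5.24 (Ttc21a) and 4.48 (Fam183b) on the log2 scale.

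Genes that primary cilia and centrioles of most cells also use stood out less. Of 27 intraflagellar transport genes, whose products carry cargo along cilia, 6 were higher (median 0.55), led by Ttc30b at 2.22 ± 0.32 and the retrograde motor chain Dync2li1 at 1.55 ± 0.27. Of 22 genes of the BBSome and transition zone, the gate at the cilium's base, 8 were higher (median 0.62), with Tctn2 at 1.87 ± 0.25. Of 16 centriole and basal body genes 3 were higher and 1 lower (median 0.12). The higher ones included Ccdc78 (4.31 ± 0.36) and Deup1 (2.93 ± 0.46), which act in the deuterosomes that build many centrioles in multiciliated cells, and the lower one was Plk4, the kinase that starts centriole duplication in dividing cells too, at -1.34 ± 0.47. Of the regulators, 6 of 10 were higher: Trp73 (3.73 ± 0.40), which acts upstream of Foxj1, Rfx2 (2.51 ± 0.36), Myb (2.32 ± 0.33), Fank1 (2.27 ± 0.36), Rfx4 (1.46 ± 0.42) and Rfx3 (1.06 ± 0.29). Mcidas and Ccno, which start centriole amplification in differentiating ciliated cells, did not pass, with 0 to 27.7 CPM for Ccno over the areas.

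**Figure D2:**
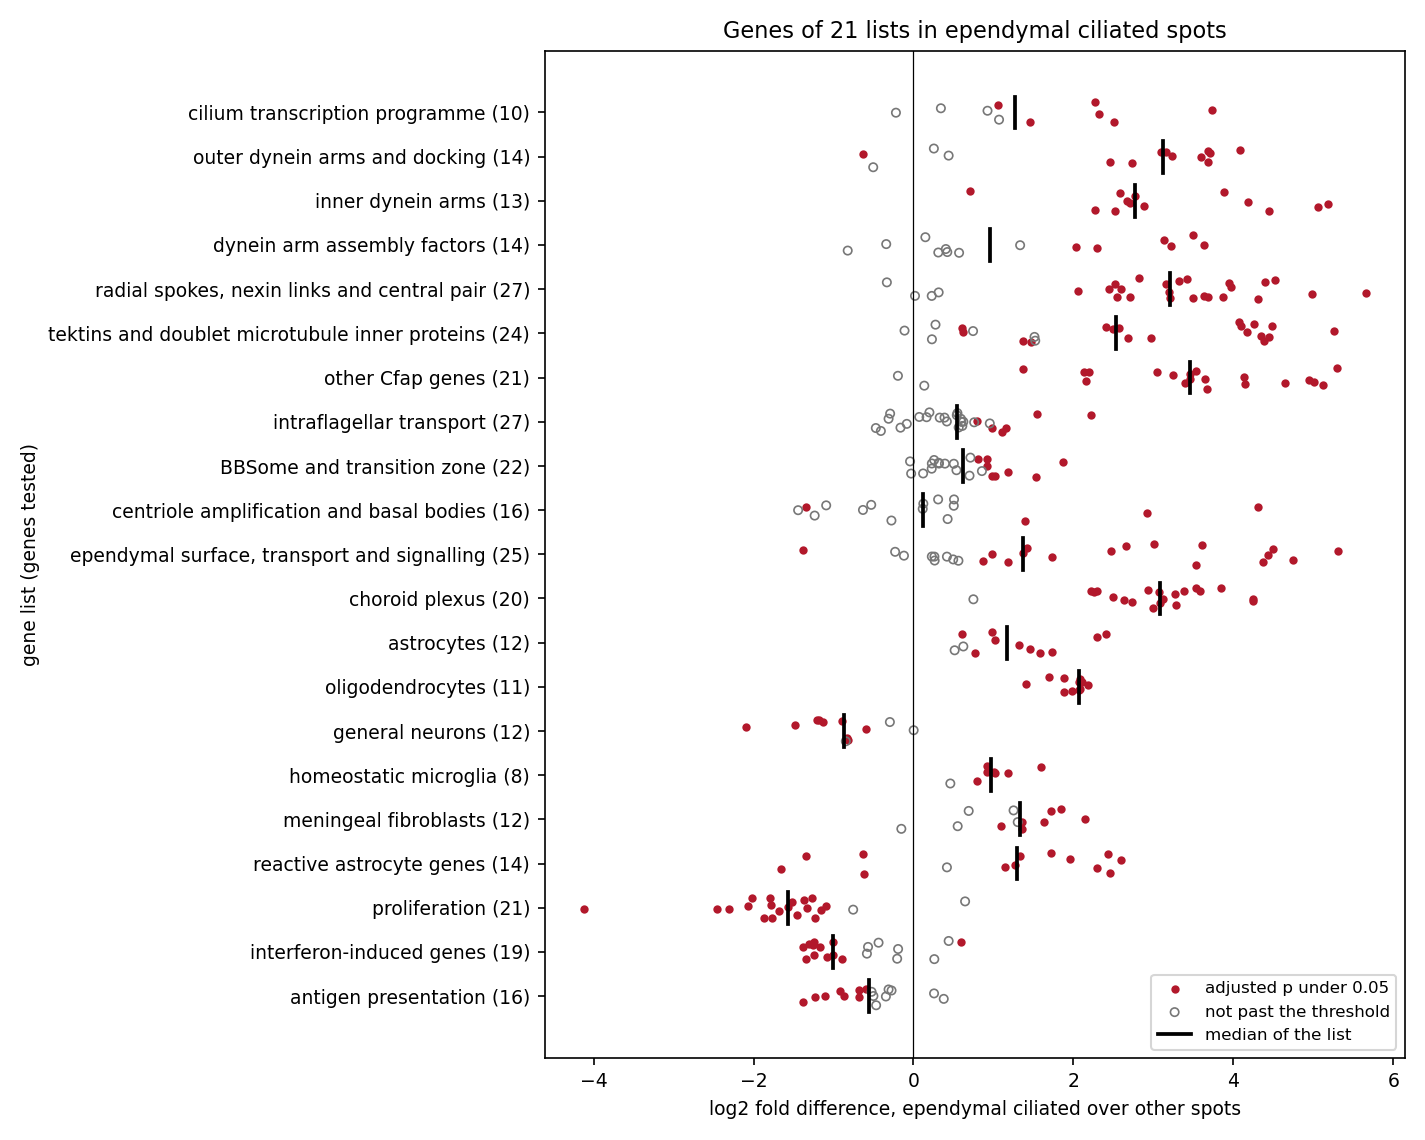
Log2 differences of single genes between ependymal ciliated and other spots (x axis) in 21 gene lists (y axis, with the number tested); red points had an edgeR adjusted p under 0.05, open points did not, and black bars are list medians. Lists of axoneme parts centre between 2.53 and 3.46, apart from the assembly factors at 0.95, with the red Dynll1 point below 0. Transport and transition zone lists centre between 0 and 1. Choroid plexus and oligodendrocyte lists are also high, and neuron and proliferation lists centre below 0.

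Genes of the ependymal surface and its secretions were higher in 16 of 25 cases, with 1 lower (Gmnn, a geminin that limits DNA replication, at -1.38), and a median of 1.37. Rarres2, which encodes the secreted attractant chemerin (chr6:48569696-48572845, GRCm38.p6), had the smallest p of all genes outside the rule. It had 428 and 577 CPM in the ependymal ciliated spots of TREAT and 508 and 337 CPM in those of Vehicle, against 20.0 and 17.6 CPM and 14.6 and 12.1 CPM in the other spots (4.74 ± 0.24). Every area's ependymal ciliated spots lay far above all the other sums. The surface glycoprotein gene Cd24a had 155 and 225 CPM in TREAT and 102 and 219 CPM in Vehicle, against 11.2 and 10.5 CPM and 6.47 and 4.51 CPM in the other spots (4.37 ± 0.25). The secreted protein gene Mia differed by 5.31 ± 0.31, the phospholipid transfer protein gene Pltp by 3.01 ± 0.23, and the glial transcription factor gene Sox9 by 2.66 ± 0.23. Celsr2, of the planar polarity system that aligns cilia and a gene many neural cells express, differed by -0.12 ± 0.24 and did not pass. Other genes among the 12 with the smallest p were the long noncoding or little characterised Gm19935 (4.70 ± 0.24) and 2410004P03Rik (4.85 ± 0.25), Odf3b (5.24 ± 0.27), Unc5cl (5.67 ± 0.31) and Prelp (4.01 ± 0.23), a matrix protein gene.

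Levels were also followed over single spots. Across 12696 spots, with log2(CPM + 1) centred within each area, the genes outside the rule that correlated most with the score were Gm19935 and Drc7 (Pearson r = 0.26 each), 2410004P03Rik, Mia, Ttc21a, Cfap52 and Ecrg4 (0.24 each), and Rarres2, Dnali1 and Unc5cl (0.23 each). The spots share libraries and depth, and with so few UMIs per spot the values describe an ordering of genes only.

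Other cell types of the ventricle wall were in the spots too. Choroid plexus genes were higher in 19 of 20 cases with a median of 3.08. A few spots carried these sums: the median ependymal ciliated spot had 1447 and 2364 CPM of the list in TREAT and 1882 and 752 CPM in Vehicle, against 22954 and 26787 CPM and 17195 and 1079 CPM for the summed spots. In both TREAT areas that median lay below the summed level of the other spots, 1736 and 2486 CPM. For the motile cilium genes the median spot, at 5188 and 6804 CPM in TREAT and 3617 and 3371 CPM in Vehicle, lay close to the sums. Ttr, the transthyretin gene that this epithelium expresses at very high levels, had 19419 and 21943 CPM in the ependymal ciliated spots of TREAT and 13286 and 232 CPM in those of Vehicle, against 1174 and 1908 CPM and 539 and 155 CPM in the other spots (3.28 ± 0.29). Vehicle 2+3 stood far below the other areas. There 7 of the 21 choroid plexus markers had no UMI in ependymal ciliated spots (Kl, Kcne2, Kcnj13, Slc13a4, F5, Oca2 and Cdh3), as had Slc13a4 and Oca2 in Vehicle 1+4, while both TREAT areas had UMIs of all 21. Of the 191 spots, 35 (18.3%) were also in the top 1.5% of spots for the choroid plexus list, 11 and 21 in TREAT and 3 and 0 in Vehicle. By the same count 130 (68.1%) were in the top 1.5% for the summed motile cilium genes, 46 and 55 in TREAT and 13 and 16 in Vehicle.

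Glia of the wall were richer and neurons poorer. All 11 oligodendrocyte genes were higher (median 2.07). Mbp, the myelin basic protein gene, differed by 2.11 ± 0.25. Of 12 astrocyte genes 10 were higher (median 1.17). Gfap, the filament protein of astrocytes, had 3197 and 3798 CPM in TREAT and 3372 and 3087 CPM in Vehicle ependymal ciliated spots, against 876 and 780 CPM and 543 and 445 CPM in the other spots (2.30 ± 0.23), a gap in every area. Of 14 reactive astrocyte genes 9 were higher and 4 lower, so the list was mixed. The higher ones included the complement gene C3 (2.44 ± 0.22) and S1pr3 (2.46 ± 0.24), and the lower ones the chemokine gene Cxcl10 (-1.34 ± 0.24). Of 8 homeostatic microglia genes 7 were higher (median 0.97). General neuron genes were lower in 9 of 12 cases and higher in 0 (median -0.87), with Snap25 at -1.13 ± 0.23 and Nefm at -2.09 ± 0.27. None of the 191 spots was among the top 1.5% for neuron or for proliferation genes. Counting error alone, with spots taken as independent, allows a share of up to 1.57%. That lies above 1.5%, so this count does not separate them from all spots.

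Rarer cells of the ventricle wall left few UMIs. Their counts stand beside 10.1% of all genes higher and 9.98% lower. Of 7 subcommissural organ genes 1 was higher, Sspo, which encodes the SCO-spondin of Reissner's fibre, with 28.3 and 22.3 CPM in TREAT and 18.5 and 22.8 CPM in Vehicle, against 8.09 and 4.15 CPM and 2.74 and 2.27 CPM in the other spots (2.25 ± 0.42). Of 13 tanycyte genes 3 were higher and 1 lower, and the tanycyte transcription factor gene Rax had no UMI in either Vehicle area's ependymal ciliated spots. Of 15 genes of subventricular zone progenitors and neuroblasts 5 were higher, with Igfbpl1 at 2.85 ± 0.37. T and NK cell genes were higher in 0 and lower in 0 of 12 cases.

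Genes of dividing cells and of immune responses were lower than in all other spots together, many of which lay 11 or more array steps away. Proliferation genes were lower in 19 of 21 cases with a median of -1.57. Mki67 had 17.5 and 31.2 CPM in TREAT and 27.7 and 31.9 CPM in Vehicle ependymal ciliated spots, against 71.9 and 147 CPM and 140 and 168 CPM in the other spots (-2.30 ± 0.28), below in every area. Interferon-induced genes were lower in 11 of 19 cases and higher in 1, and antigen presentation genes lower in 8 of 16 (median -0.56). The interferon list summed to 1919 and 2094 CPM in TREAT and 2786 and 7335 CPM in Vehicle ependymal ciliated spots. At 1 array step it was 3021 and 2255 CPM in TREAT and 2767 and 3705 CPM in Vehicle. Among the 12 lower genes with the smallest p were Rhox5 (-3.12 ± 0.28) and Tex101 (-3.00 ± 0.27), both known from testis, the peripherin gene Prph (-2.58 ± 0.27), the histone genes Hist1h2bb and Hist2h2bb (-2.19 and -2.11) and Cdkn2a (-2.45 ± 0.27). Zcwpw1, Tinagl1, Tubb6, Depdc7 and Ppic lay between -2.82 and -2.32, and Padi4 had no UMI in the ependymal ciliated spots of TREAT.

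The spots were also set against only those other spots within 2 array steps of them, which share their surroundings. Of 11103 genes 922 (8.3%) were higher and 721 (6.49%) lower. Axonemal genes remained far apart, with 57 of 70 higher and a median of 2.11. Of 24 transport genes 10 were now higher (median 0.55). Choroid plexus genes came down to 4 of 16 (median 0.49), and oligodendrocyte genes to a median of 0.64 with all 11 higher. Proliferation genes were lower in 5 of 16 cases (median -0.65), interferon-induced genes higher in 2 and lower in 0 of 19 (median 0.18), and antigen presentation genes in 0 of 15 either way. Neuron genes were as low as before, 9 of 11 lower with a median of -0.99.

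Levels of gene lists were next set out by distance from the nearest ependymal ciliated spot. Spots at 1 or more steps had by the rule a score under the limit. The drop of cilium genes at the first step is therefore partly built in, and the width of a ciliated zone was not measured. The summed level of 104 motile cilium genes, the 6 lists without 12 genes that many cells express, was 5658 and 7112 CPM in the ependymal ciliated spots of TREAT and 4326 and 3932 CPM in those of Vehicle. At 1 array step it was 1895 and 2401 CPM in TREAT and 1560 and 1722 CPM in Vehicle, and at 3 steps 949 and 1080 CPM and 837 and 769 CPM. Spots 11 or more steps away had 845 and 699 CPM in TREAT and 567 and 575 CPM in Vehicle, so in each area most of the excess was gone within 3 steps. Oligodendrocyte genes, which the rule did not use, also fell off, with 28943 and 26428 CPM in TREAT and 24051 and 17193 CPM in Vehicle ependymal ciliated spots, and 9674 and 2833 CPM and 3015 and 2549 CPM at 11 or more steps. Choroid plexus genes were higher 1 step away than in the spots themselves in TREAT 2+3 (39142 against 26787 CPM) and not in TREAT 1+4 (15254 against 22954 CPM). Neuron genes ran the other way over the first steps, with 1978 and 1809 CPM in TREAT and 2136 and 2623 CPM in Vehicle ependymal ciliated spots and 5458 and 5899 CPM and 5341 and 3527 CPM at 4 to 5 steps.

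**Figure D3:**
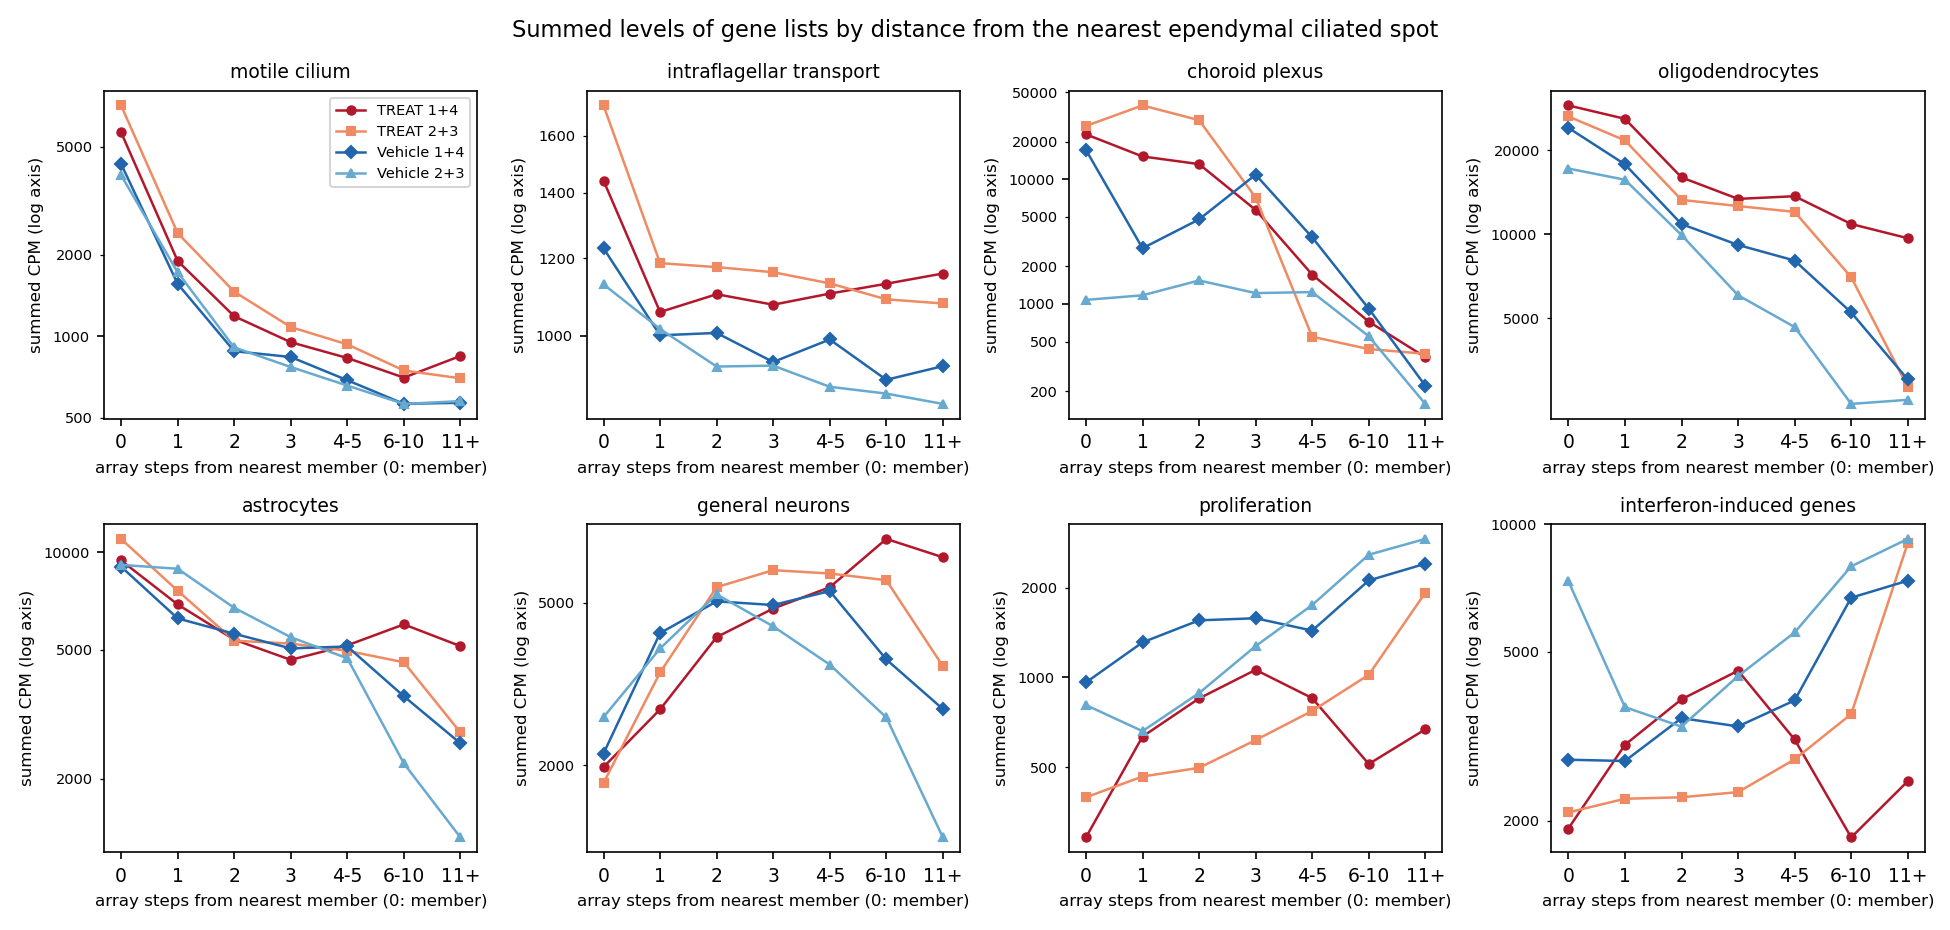
Summed CPM of 8 gene lists (log y axes) by distance in array steps from the nearest ependymal ciliated spot (x axes, 0 being the spots themselves), 1 line per capture area. The motile cilium line drops from 5658, 7112, 4326 and 3932 CPM to between 769 and 1080 CPM at 3 steps in all areas, neuron genes are lowest in the spots themselves out to 5 steps, and the choroid plexus line of Vehicle 2+3 lies below the other areas near the spots.

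The spots lay against different tissue in different pieces. Hypothalamic genes were 3.42 times the level of all other spots in the ependymal ciliated spots of the right piece of TREAT 1+4 and 2.17 times in those of the right piece of Vehicle 2+3, and from 0.02 to 0.93 times in the remaining 5 pieces with such spots. Pomc, the precursor of melanocortin peptides, had 164 and 11.1 CPM in TREAT and 0 and 200 CPM in Vehicle, so its excess (3.57 ± 0.32) came from 1 area of each group. Choroid plexus genes were 15.1 to 23.03 times the level of all other spots in 3 TREAT pieces and 1.45 times in the right piece of TREAT 2+3, and 2.19, 0.85 and 0.66 times in the 3 Vehicle pieces. Interferon-induced genes were 2.48 times that level in the 11 spots of the left piece of Vehicle 2+3, and 0.14 to 0.73 times in the TREAT pieces and 0.29 and 0.52 times in the remaining Vehicle pieces. Motile cilium genes were 6.28 to 10.6 times that level in the TREAT pieces and 4.03 to 7.09 times in the Vehicle pieces. Every spot had passed the same limit on 5 cilium genes, so their spread cannot be set against that of the lists above.

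**Figure D4:**
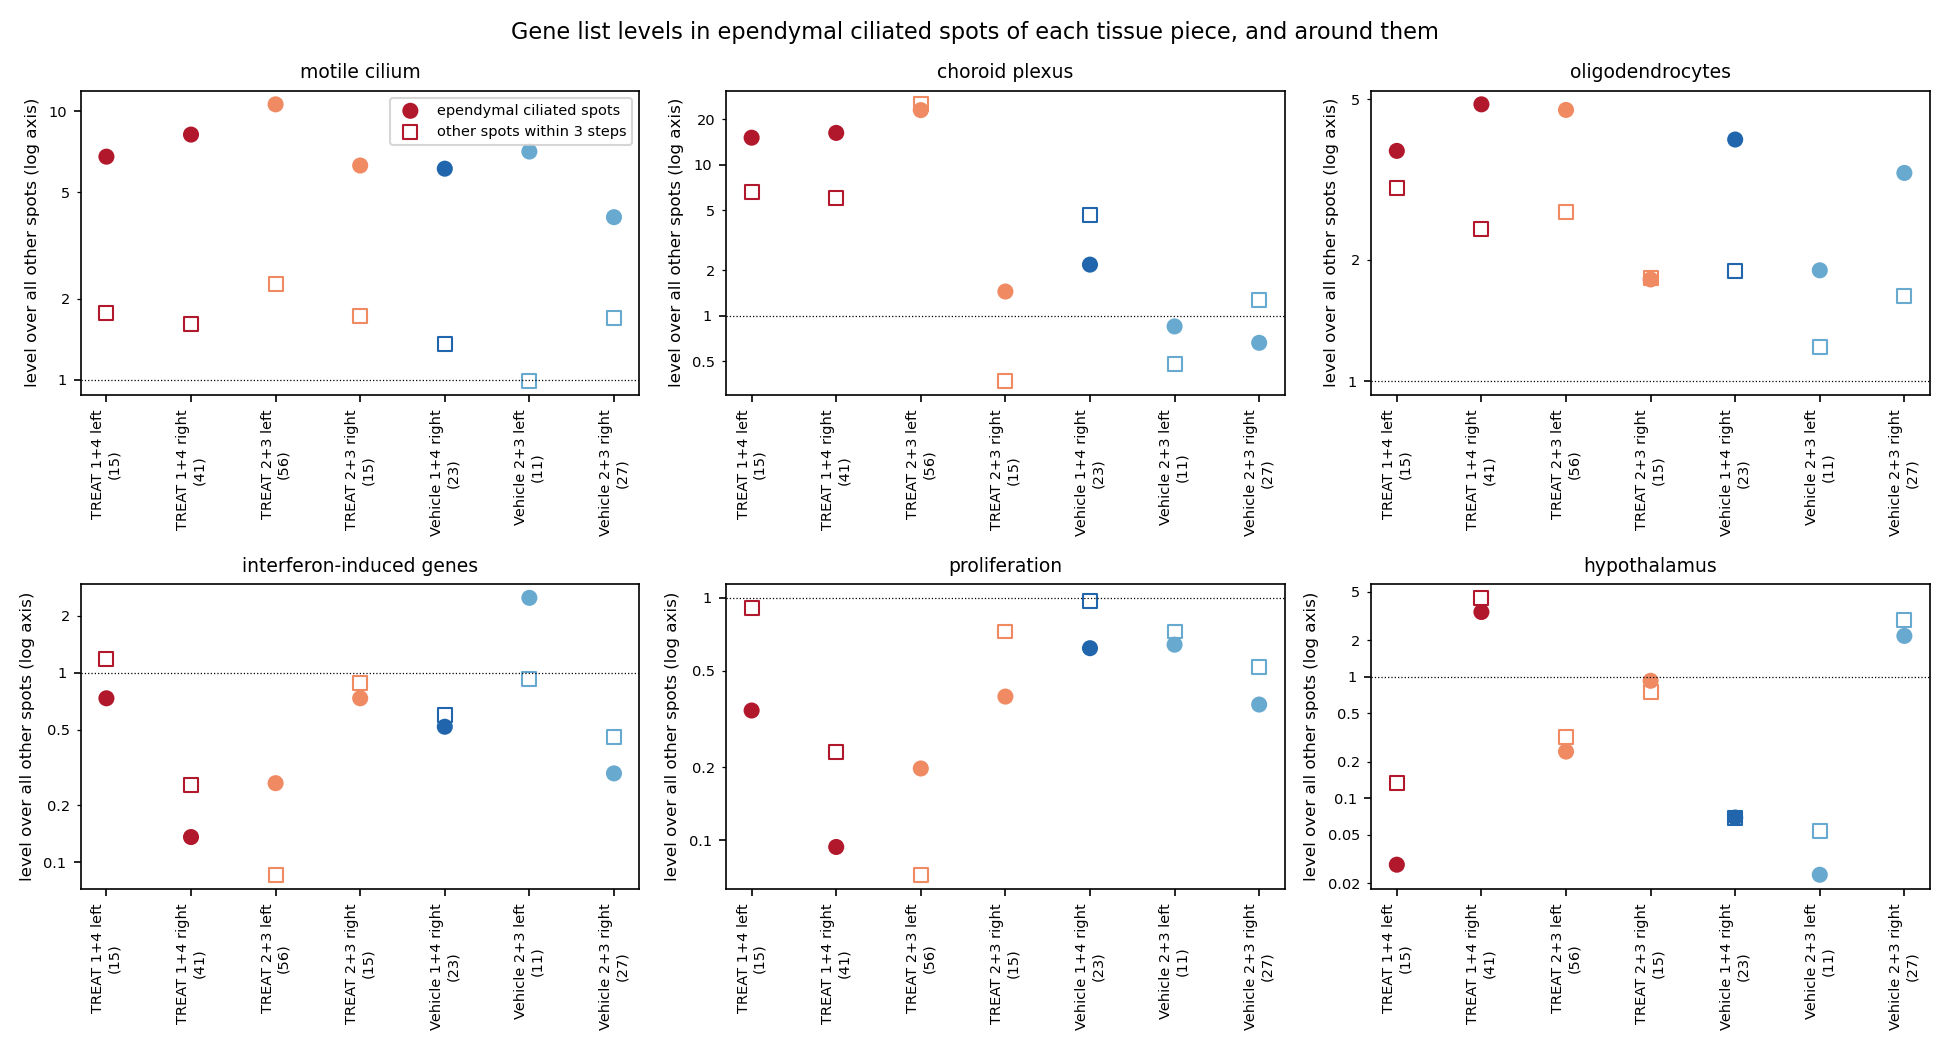
Levels of 6 gene lists in the ependymal ciliated spots (filled circles) and in the other spots within 3 array steps (open squares) of each tissue piece with at least 10 such spots, as a ratio to all other spots of the series (log y axes; number of ependymal ciliated spots in brackets; TREAT left of Vehicle). Motile cilium ratios, which the rule held high, lie between 4.03 and 10.6 in every piece. Choroid plexus ratios run from 0.66 to 23.03 over the pieces, and interferon-induced and hypothalamic ratios also vary.

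TREAT and Vehicle were then compared within the ependymal ciliated spots, on 1 sum per area, with edgeR's quasi-likelihood F-test and Benjamini-Hochberg adjustment. The sums held 746671 and 451749 UMIs in TREAT and 109103 and 221541 UMIs in Vehicle, so the Vehicle sums were the less precise. Of 7916 genes, 4 (0.0505%) passed an adjusted p of 0.05 on the higher side and 38 (0.48%) on the lower side in TREAT, and 976 had an unadjusted p under 0.05. The 4 higher genes were Sst, Agt, Fank1 and Gm20854. The filter on low counts could be met by 1 group alone. Fank1 met it only in TREAT, and Tex101, Tac2, Oas3, Cdkn2a and Rhox5 only in Vehicle, so their adjusted p-values are a description. Other called genes may have met it in the same way. Of the gene lists, antigen presentation held 6 of the 38 lower genes, and the interferon-induced and proliferation lists held 2 each. No gene passed when the top 3% or the top 0.5% of spots were taken or when genes needed a mean of 10 CPM (1093, 268 and 1179 genes at an unadjusted p under 0.05), and without TREAT 2+3 there was 1 higher and 0 lower, none of them among the 42.

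Sst, the somatostatin gene, had 403 and 434 CPM in the ependymal ciliated spots of TREAT, against 166 and 150 CPM in those of Vehicle (log2 difference 1.41 ± 0.27, edgeR adjusted p = 0.0294). Its level in the other spots was likewise the higher in TREAT, at 530 and 350 CPM against 172 and 64.0 CPM in Vehicle. Agt, which encodes angiotensinogen and in brain is made mainly by astrocytes, had 245 and 178 CPM in TREAT, against 46.2 and 72.9 CPM in Vehicle (1.75 ± 0.35, edgeR adjusted p = 0.0374). Its other spots overlapped between the groups, at 156 and 33.1 CPM in TREAT and 46.5 and 41.6 CPM in Vehicle. Fank1, an ankyrin repeat gene of the cilium programme list (chr7:133776836-133881536, GRCm38.p6), had 53.9 and 57.9 CPM in TREAT, against 0 and 4.55 CPM in Vehicle (edgeR adjusted p = 0.0423). That is 66 UMIs in TREAT and 1 in Vehicle, a ratio of shares of UMIs of 18.2 with an exact interval of 3.15 to 728 for counting error only. Fank1 passed the filter on low counts only through TREAT, so its call is a description. Gm20854, annotated to chromosome Y, had 124 and 145 CPM in TREAT, against 37.0 and 36.4 CPM in Vehicle (1.86 ± 0.39, edgeR adjusted p = 0.0432). The other spots had the same order for Gm20854, at 53.1 and 48.4 CPM in TREAT and 13.5 and 16.6 CPM in Vehicle. Ppp2r5c, with 121 and 125 CPM in TREAT and 37.0 and 36.4 CPM in Vehicle, missed the threshold (edgeR adjusted p = 0.0585).

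For the axonemal genes the TREAT areas tended to the higher side, but no gene passed. Of 68 tested 0 were called, 60 had a positive difference, and the median was 0.62, against 0.00 for all genes. The filter on low counts kept 68 of 116 axonemal genes and could be met through TREAT alone. The signs and the median are therefore a description. The summed motile cilium level was above in both TREAT areas, at 5658 and 7112 CPM against 4326 and 3932 CPM in Vehicle. The same held in the other spots, at 850 and 807 CPM in TREAT and 593 and 605 CPM in Vehicle. Leaving out 1 area at a time gave 0 to 4 called axonemal genes and medians of 0.43 to 0.93. The ependymal ciliated sums of Vehicle also came from shallower spots, and the part of depth in the axonemal difference was not tested.

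Antigen presentation genes fell in TREAT ependymal ciliated spots in 6 of 14 cases, and all 14 differences were negative (median -1.26). H2-Ab1, an MHC class II chain, had 194 and 125 CPM in TREAT, against 443 and 505 CPM in Vehicle (-1.56 ± 0.27, edgeR adjusted p = 0.0203), and its partner H2-Aa had 119 and 71.3 CPM in TREAT, against 259 and 355 CPM in Vehicle (-1.69 ± 0.30, edgeR adjusted p = 0.0222). The groups did not overlap for either gene. Cd74, the class II invariant chain, Tap2 and Tapbp, which load peptides on class I, and the immunoproteasome gene Psmb8 differed by -1.32 ± 0.25, -1.39 ± 0.26, -1.36 ± 0.24 and -1.32 ± 0.26. Leaving out 1 area at a time gave 0 to 10 lower genes, 0 without TREAT 2+3, 3 without Vehicle 2+3 and 10 without Vehicle 1+4. The other spots had the same order, with 4334 and 10234 CPM for the summed list in TREAT and 12885 and 16788 CPM in Vehicle, and H2-Ab1 at 146 and 326 CPM in TREAT and 425 and 569 CPM in Vehicle. The interaction for H2-Ab1 did not pass (-0.27, edgeR adjusted p = 0.855). In the spots within 2 array steps the groups overlapped, with 8950 and 4675 CPM for the list in TREAT and 8336 and 8834 CPM in Vehicle. Microglia markers, beside which these genes can be read, had summed levels of 879 and 945 CPM in TREAT and 1512 and 1237 CPM in Vehicle ependymal ciliated spots, with 0 of 7 genes called and all 8 markers present in each area. Their part in the result was not tested.

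Interferon-induced genes were lower in 2 of 17 cases, with all 17 differences negative and a median of -1.31. With 1 area left out the count ran from 0, without TREAT 2+3, to 16, without Vehicle 1+4, and the median from -1.86 to -0.61. Cxcl10, an interferon-induced chemokine that attracts T cells, had 76.8 and 84.7 CPM in TREAT, against 259 and 1252 CPM in Vehicle (-3.29 ± 0.47, edgeR adjusted p = 0.0135). Oas1a, which makes the activator of an antiviral RNase, differed by -2.90 ± 0.55. Outside the list, Zbp1, a sensor of nucleic acids, had 67.4 and 46.8 CPM in TREAT, against 148 and 423 CPM in Vehicle (-2.38 ± 0.38, edgeR adjusted p = 0.0151). Oas3, of the same family as Oas1a, had 5.39 and 13.4 CPM in TREAT, against 37.0 and 146 CPM in Vehicle (-3.58 ± 0.60, edgeR adjusted p = 0.0167). Vehicle 2+3 was the high area for each of these genes. Within it the list summed to 14488 CPM in the 11 spots of the left piece and to 1717 CPM in the 27 spots of the right piece, against 792 to 4276 CPM in the TREAT pieces and 3025 CPM in the right piece of Vehicle 1+4. Without Vehicle 2+3 the list median was -0.61 and 6 of 18 differences were positive.

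Other lower genes included Ccnd1 and 2 histone genes named by their p. Ccnd1, the cyclin D1 gene, had 150 and 149 CPM in TREAT, against 379 and 587 CPM in Vehicle (-1.72 ± 0.27, edgeR adjusted p = 0.0151). Hist2h2bb had 170 and 156 CPM in TREAT, against 508 and 492 CPM in Vehicle (-1.61 ± 0.25, edgeR adjusted p = 0.0151), and Hist1h2bb, another H2B gene, differed by -1.69 ± 0.28. The TREAT areas lay below both Vehicle areas for all 3 genes. Of 10 proliferation genes tested 2 were lower, Cdk1 (-1.92 ± 0.34) and Tk1 (-2.90 ± 0.61), with all 10 differences negative and a median of -1.54. The filter kept 10 of the 21 list genes and could be met through Vehicle alone. The signs and the median of these 10 are therefore a description. The whole list summed to 291 and 396 CPM in TREAT and 962 and 808 CPM in Vehicle ependymal ciliated spots. With any 1 area left out, 0 or 1 proliferation genes were called. Tex101 had 13.5 and 8.91 CPM in TREAT, against 111 and 105 CPM in Vehicle (-3.16 ± 0.45, edgeR adjusted p = 0.0135). These genes were also lower in the other spots of TREAT: Ccnd1 had 222 and 469 CPM there against 1276 and 1426 CPM in Vehicle, and Tex101 95.2 and 345 CPM against 367 and 564 CPM.

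3 genes that neurons express were also among the lower ones by p. Nrgn, the neurogranin gene of excitatory neurons, had 102 and 178 CPM in TREAT, against 434 and 542 CPM in Vehicle (-1.84 ± 0.29, edgeR adjusted p = 0.0151). Cplx1, which encodes the synaptic protein complexin 1, had 131 and 205 CPM in TREAT, against 434 and 710 CPM in Vehicle (-1.82 ± 0.30, edgeR adjusted p = 0.0158), and Tac2, the neurokinin B gene, had 16.2 and 8.91 CPM in TREAT, against 55.4 and 168 CPM in Vehicle (-3.20 ± 0.51, edgeR adjusted p = 0.0151). The groups did not overlap for any of them. The list of general neuron genes had 0 of 9 called (median -0.43), with summed levels of 1978 and 1809 CPM in TREAT and 2136 and 2623 CPM in Vehicle.

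Markers of other wall cells moved unevenly. Choroid plexus genes were called in 0 of 15 cases with a median of 1.03, and summed to 22954 and 26787 CPM in TREAT and 17195 and 1079 CPM in Vehicle. Without Vehicle 1+4 the median was 3.30 with 8 of 19 called, and without Vehicle 2+3 it was -0.09 with 0 of 20 called, so 1 area decided the direction. In Vehicle 1+4 the level rested largely on the 3 spots of the fragments, since in its right piece it was 3157 CPM. Oligodendrocyte genes were called in 0 of 11 cases (median 0.53) and astrocyte genes in 0 of 12 (median 0.13).

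**Figure D5:**
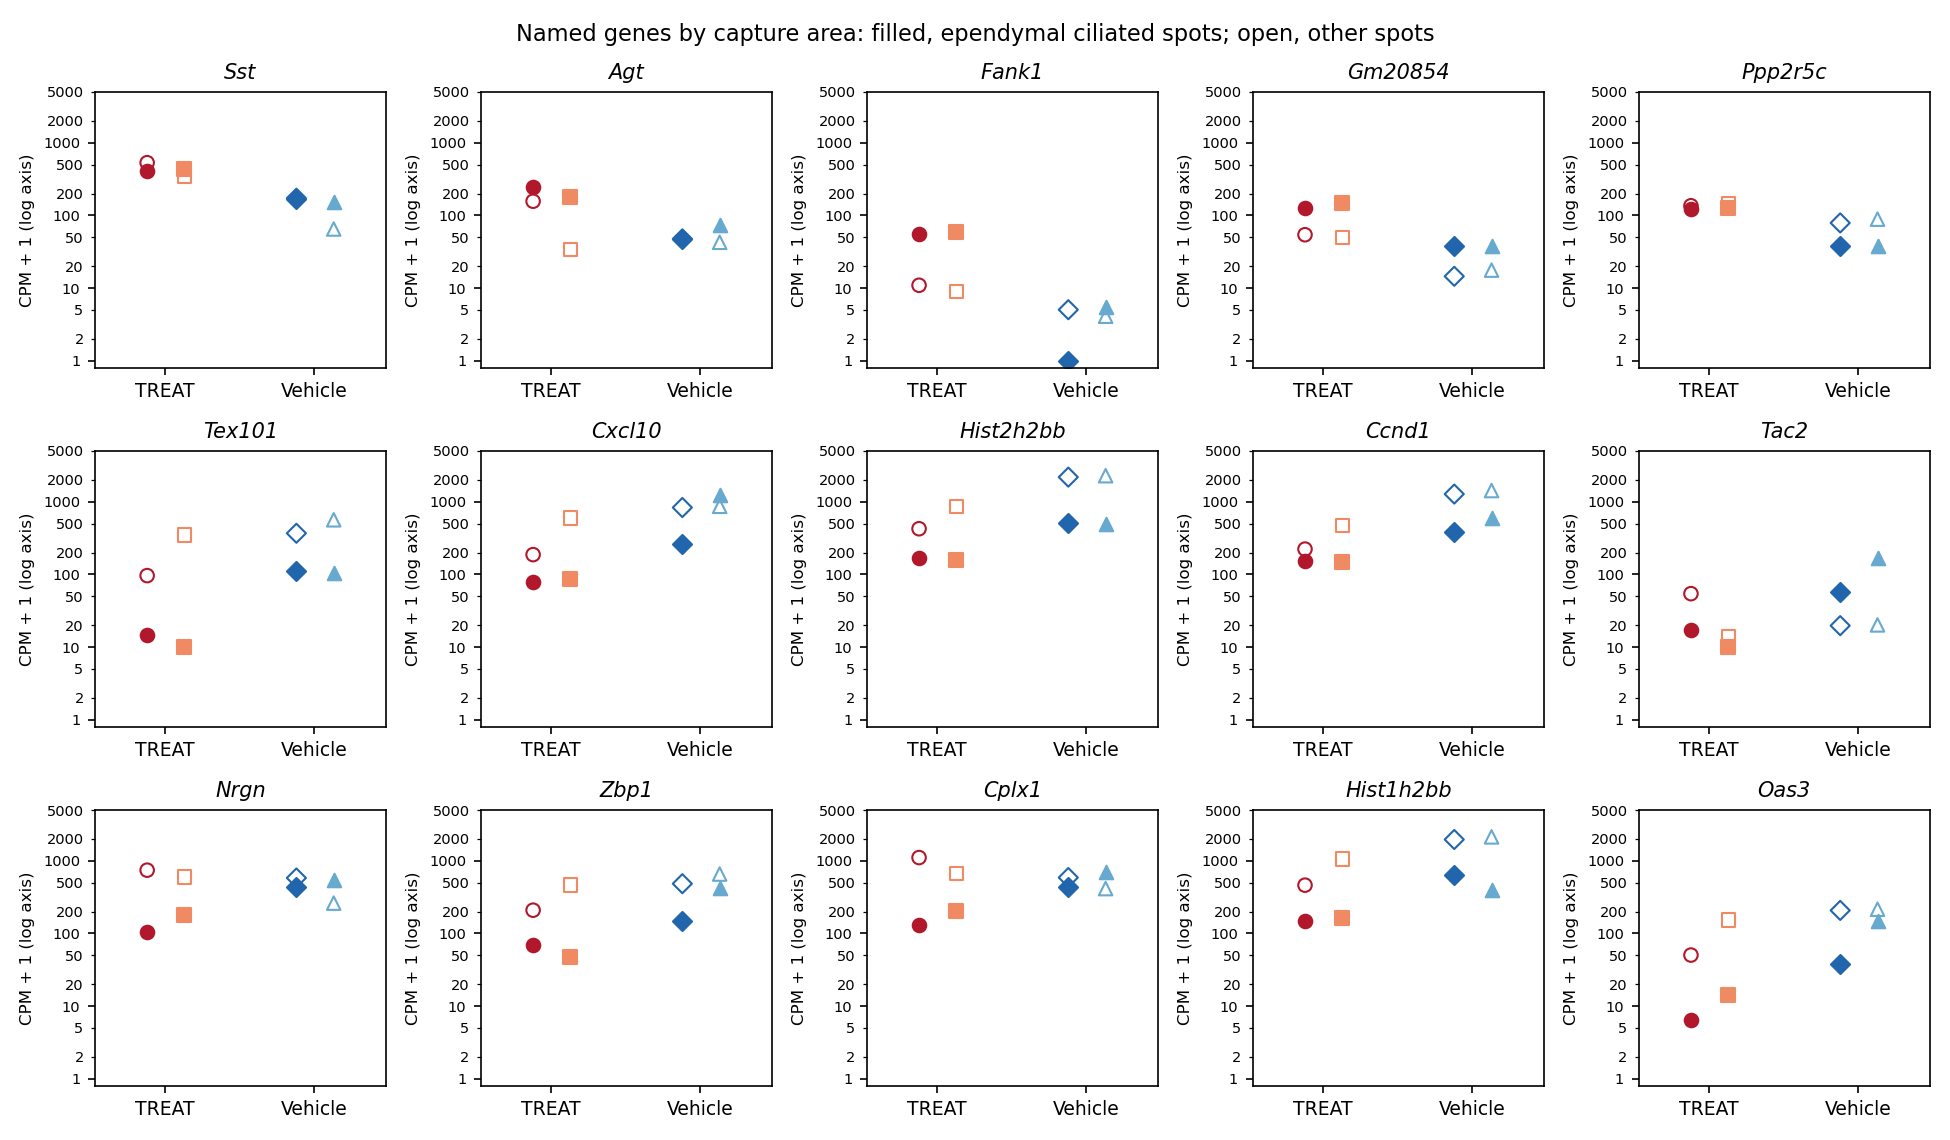
CPM + 1 on a log axis of the 15 genes named in the comparison of TREAT (left) with Vehicle (right), 1 point per capture area, filled for ependymal ciliated spots and open for other spots. The filled TREAT points lie above the filled Vehicle points in the top row, where Ppp2r5c missed the threshold, and below them in the other rows, while the open points of Ccnd1 and Tex101 show the same order and those of Nrgn and Cplx1 do not.

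Whether such differences were unlike those in all other spots was tested as an interaction, the TREAT to Vehicle difference of the gap between ependymal ciliated and other spots. Of 18697 genes 20 (0.107%) had a higher and 146 (0.781%) a lower interaction by edgeR with an adjusted p under 0.05, and the median of all genes was 0.12. Among the genes named above, the interaction was lower for Tac2 (-3.98 ± 0.56), Nrgn (-2.58 ± 0.40), Cplx1 (-2.54 ± 0.41), Oas3 (-2.21, edgeR adjusted p = 0.0183) and Cxcl10 (-1.54, edgeR adjusted p = 0.0358). The spots within 2 array steps had the same order for the neuron genes. Tac2 had 13.6 and 7.63 CPM there in TREAT and 111 and 146 CPM in Vehicle. Nrgn had 305 and 570 CPM there in TREAT and 866 and 768 CPM in Vehicle, and Cplx1 had 394 and 484 CPM in TREAT and 678 and 743 CPM in Vehicle. So the lower levels of these 3 genes in TREAT extended to the tissue around the ependymal ciliated spots. The interaction did not pass for Tex101 (-1.68, edgeR adjusted p = 0.124), Agt (1.03, edgeR adjusted p = 0.354), Fank1 (2.89, edgeR adjusted p = 0.419), Gm20854 (0.24, edgeR adjusted p = 0.883) or Ccnd1 (0.49, edgeR adjusted p = 0.845). That does not show that these genes differed equally in both kinds of spot. Slc17a7, the vesicular glutamate transporter gene of cortical neurons, had 102 and 383 CPM in the ependymal ciliated spots of TREAT and 591 and 524 CPM in those of Vehicle, against 1011 and 1117 CPM and 644 and 365 CPM in the other spots (interaction -2.50). Of 112 axonemal genes 1 passed, Mns1 (1.71), and the median was 0.03. Col9a3, a collagen gene, had 237 and 241 CPM in the ependymal ciliated spots of TREAT and 231 and 77.4 CPM in those of Vehicle, against 57.8 and 66.6 CPM and 143 and 178 CPM in the other spots (2.29 ± 0.38), so its higher interaction came mainly from the other spots and from Vehicle 2+3.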

How the data were processed

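The members and gene lists were chosen with earlier results of these data known. The authors deposited raw UMI counts per spot and gene for 4 capture areas, and the submitters' processing notes name Space Ranger 2.1.1, the mm10 build, R 4.4.1 and Seurat. Of 32589 features 20457 were used, leaving out those with no UMI in any tissue spot and the 304 marked as deprecated, and 20013 matched RefSeq genes by ID. Counts were summed per area over ependymal ciliated spots and over other spots. edgeR 4.0.16 (limma 3.58.1, R 4.3.3) was run with TMM scaling, its default filter on low counts and Benjamini-Hochberg adjustment, all genes fitted together. DESeq2 1.42.0 was an alternative. Scripts ran in Python 3.11.15 with numpy 2.4.6 and scipy 1.17.1, and were tested on simulated data. Genes named were the 12 with the smallest p in each direction against other spots, up to 10 in each direction between TREAT and Vehicle (the 5 smallest p as values where fewer than 5 passed), and up to 5 per list. Other genes named were chosen after their values were seen. Probes measure short target sequences, so levels were compared within a gene. Doublets have no meaning for spots, and no spot deconvolution was run. 1 named gene is not reported here.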

Additional observations from a re-analysis of the deposited data

Results flagged for a closer look

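The gap between ependymal ciliated and other spots differed between TREAT and Vehicle by the edgeR interaction test for 20 genes in the higher and 146 genes in the lower direction. Motile cilium transcripts were also found in spots outside the comparisons. The 158 spots off tissue that touch an ependymal ciliated spot held 4605 UMIs of the motile cilium genes, or 6660 CPM, against 834 CPM in the 6131 off-tissue spots over 5 steps away and 2519 CPM at 2 to 5 steps. By area the spots beside had 7360 and 7534 CPM in TREAT and 5372 and 2999 CPM in Vehicle. The 350 tissue spots under the minimum of 2000 UMIs held 651 UMIs of these genes, or 1439 CPM. What these transcripts come from was not tested.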

How the results depend on the processing

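The excess of TREAT in the share of ependymal ciliated spots kept its sign under all settings run, from 0.462 to 1.62 points. Against other spots, genes higher numbered 1228 with the top 0.5% of spots, 1236 with thinned scores, 922 against adjacent spots, and 802 to 1442 with 1 area left out, the lowest without TREAT 2+3. Genes lower numbered 926 by DESeq2, 1106 with a mean of 10 CPM, 1073 thinned, 721 against adjacent spots and 1028 to 2347 with 1 area left out. Scaling moved the split of higher to lower to 1999 and 1539 (DESeq2 size factors), 2032 and 1462 (library totals) and, with no filter, 1456 and 2784. Between TREAT and Vehicle the higher and lower counts were 10 and 77 with DESeq2 size factors, 1 and 26 with library totals, 0 and 18 by DESeq2 (316 genes at an unadjusted p under 0.05), 47 and 115 with no filter, 25 and 92 with a 500 UMI minimum, 2 and 34 with 5000, 26 and 130 thinned, 6 and 62 with at least 3 UMIs of the 5 genes, and 0 and 0 with the top 3%, the top 0.5% or a mean of 10 CPM. With 1 area left out they ran from 1 to 41 and from 0 to 119, the lowest without TREAT 2+3, with the lone area assumed to vary like the others. Whether the label numbers 1+4 and 2+3 pair the areas is not known. The deviations of the 1+4 areas from their group means had r = -0.07 over 7921 genes, a single comparison that cannot decide it. A replicate block gave 23 and 93 calls, among them all 42. Lower interactions numbered 56 with the top 3%. The sign turned for Calb2 (-0.72) and Cartpt (-0.41) with the top 0.5%, Hcrt (0.65) thinned, and Cartpt (-0.10) and Psmb9 (0.0084) against adjacent spots. The cause was not tested in these cases. Depth limits the Vehicle sums, which held 109103 and 221541 UMIs.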

Other observations

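Water and ion handling genes of the ventricle were higher in ependymal ciliated spots in 11 of 16 cases, with a median log2 difference of 0.94. Car2, a carbonic anhydrase, had 1198 and 875 CPM in TREAT and 1395 and 1015 CPM in Vehicle, against 557 and 263 CPM and 183 and 159 CPM in the other spots (2.01 ± 0.23, SE). Aqp4, the water channel of astrocytes and ependyma, differed by 1.74 ± 0.22. Of 12 hypoxia genes 3 were higher, Car9 (2.07 ± 0.28), Ndrg1 (2.04 ± 0.22) and Slc2a1 (0.68 ± 0.22), and 1 was lower, Ero1l, with a list median of 0.04. Meningeal fibroblast genes were higher in 7 of 12 cases (median 1.33) and, against adjacent spots, in 1 of 6. Of 10 endothelial genes 1 was higher, near the 10.1% of all genes, so nothing is read from that count. The gene was Slco1c1, of a thyroid hormone transporter, at 1.95 ± 0.26. Of 13 immediate early genes 1 was higher and 3 were lower, with 9 differences negative and a median of -0.32. Of all genes 10.1% were higher and 9.98% lower. Fos, the higher one, went against most of the list. It had 36.4 and 46.8 CPM in TREAT and 46.2 and 105 CPM in Vehicle. The other spots had 20.8 and 30.0 CPM in TREAT and 27.8 and 24.7 CPM in Vehicle.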
